A study of Mus musculus with 16 samples.

Results

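The immunoglobulin kappa variable segments, whose symbols begin with Igkv, were followed across colon libraries of mice that differed in mode of birth and in exposure to dextran sulfate sodium (DSS). Members were all rows of the expression table whose Ensembl identifier maps to an Igkv symbol, which gave 130 of 39328 rows. GENCODE M21, an annotation of the build GRCm38, lists 100 of them as genes and 30 as pseudogenes, in 20 families. RNA had been extracted with Trizol from the colon of adult wild-type mice of the ICR stock, which is outbred. Mice of the DSS_CS group were delivered by cesarean section and drank 3% DSS, which damages the epithelium of the colon, during 8 days. DSS_VD mice were delivered vaginally and drank the same solution. CON_CS mice (cesarean section) and CON_VD mice (vaginal delivery) drank normal water. Each group had 4 libraries, 16 in all, and levels are the authors' FPKM, fragments scaled by gene length and library depth. Whether the 4 libraries of a group are 4 different mice is not stated in the labels, and the spread behind each p-value may therefore be partly technical.

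The kappa light chain is made in B cells by joining a variable segment to a joining segment (Igkj) and splicing the transcript to the constant segment Igkc. A segment that points the same way as Igkj is joined by deletion of the DNA between them, and one that points the other way by inversion. Each B cell and its descendants, the antibody-secreting plasma cells, normally use a single kappa rearrangement, and in the healthy colon most plasma cells make IgA. The variable domain ends in the third complementarity-determining region (CDR3), part of the antigen-binding surface, whose last bases come from the joint.

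The 130 segments span chr6:67555497-70704177 (GRCm38), upstream of Igkj1 (chr6:70722562-70722599) and Igkc (chr6:70726435-70726966), both on the + strand. Of the segments, 57 lie on the + strand and 73 on the − strand. The last 120 coding bases of the 10 segments with the highest mean over the 4 groups are shown, because these stretches hold the germline start of CDR3 and differ between segments. Igkv4-72 is added because 2 libraries listed it at 0. Capitals mark the pattern TANTNNTGN, searched on the coding strand only and without regard to reading frame. In the stretches shown it spells the codons for tyrosine, tyrosine or phenylalanine, and cysteine before CDR3. This pattern was found in the last 120 bases of 97 of the 100 genes and 24 of the 30 pseudogenes. It also admits other codons, stop codons among them, so the counts do not show that these residues are encoded. Sequences are from GENCODE M21 transcripts, 5′ to 3′, and follow the reference genome, not the genomes of these mice.
The stretches lie on the + strand for Igkv1-117 at chr6:68121708-68121827 and Igkv1-110 at chr6:68271148-68271267. On the − strand lie Igkv10-96 at chr6:68631963-68632082, Igkv8-30 at chr6:70117061-70117180, Igkv19-93 at chr6:68736297-68736416, Igkv6-15 at chr6:70406469-70406588 and Igkv8-24 at chr6:70216858-70216977. Also on the − strand lie Igkv7-33 at chr6:70058632-70058751, Igkv5-43 at chr6:69823355-69823474, Igkv12-44 at chr6:69814631-69814750 and Igkv4-72 at chr6:69226854-69226973.
Igkv1-117: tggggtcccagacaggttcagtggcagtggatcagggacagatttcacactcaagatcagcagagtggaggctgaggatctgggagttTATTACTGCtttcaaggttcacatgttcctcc
Igkv1-110: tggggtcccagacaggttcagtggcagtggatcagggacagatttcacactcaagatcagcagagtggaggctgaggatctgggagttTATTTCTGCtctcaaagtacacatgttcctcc
Igkv10-96: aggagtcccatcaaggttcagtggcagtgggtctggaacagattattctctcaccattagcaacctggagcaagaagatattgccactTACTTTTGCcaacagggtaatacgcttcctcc
Igkv8-30: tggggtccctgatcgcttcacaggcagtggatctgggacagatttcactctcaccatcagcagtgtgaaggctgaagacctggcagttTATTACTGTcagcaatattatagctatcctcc
Igkv19-93: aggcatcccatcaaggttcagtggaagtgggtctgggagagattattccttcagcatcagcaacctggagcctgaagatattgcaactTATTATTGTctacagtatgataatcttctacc
Igkv6-15: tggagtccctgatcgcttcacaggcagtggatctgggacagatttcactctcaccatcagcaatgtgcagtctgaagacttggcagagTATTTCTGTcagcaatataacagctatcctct
Igkv8-24: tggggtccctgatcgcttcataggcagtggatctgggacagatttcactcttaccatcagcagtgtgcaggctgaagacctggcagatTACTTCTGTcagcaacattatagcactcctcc
Igkv7-33: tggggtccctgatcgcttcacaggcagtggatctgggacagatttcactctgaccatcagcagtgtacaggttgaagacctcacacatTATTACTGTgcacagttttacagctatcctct
Igkv5-43: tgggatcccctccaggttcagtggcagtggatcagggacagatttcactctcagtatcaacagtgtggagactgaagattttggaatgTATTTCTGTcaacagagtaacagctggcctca
Igkv12-44: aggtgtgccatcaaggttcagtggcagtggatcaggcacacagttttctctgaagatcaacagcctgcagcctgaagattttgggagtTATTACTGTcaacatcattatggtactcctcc
Igkv4-72: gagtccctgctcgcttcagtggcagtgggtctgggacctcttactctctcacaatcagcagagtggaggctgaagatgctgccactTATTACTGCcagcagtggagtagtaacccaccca

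The 2 segments highest on average resemble each other: Igkv1-117 (ENSMUSG00000094335) and Igkv1-110 (ENSMUSG00000093861) are identical at 97.5% of aligned transcript bases. Of all stretches of 50 bases in Igkv1-117, 49.9% also occur in another segment, so its level depends on how reads common to relatives were assigned. The shares were 50.9% for Igkv1-110 and 51.2% for Igkv5-43. By contrast only 0.633% of such stretches were shared in Igkv7-33, and none in Igkv19-93, Igkv8-24, Igkv14-111 or Igkv1-88. Over the 130 segments the median identity to the nearest relative was 94.2%, 18 segments shared over 50% of their stretches and 34 shared none.

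The order of segments was alike in most libraries, with 2 exceptions. The Spearman rho between libraries over the 130 segments had a median of 0.798 over 120 pairs, with a range of 0.430 to 0.892. The 130 include 21 segments never at FPKM 1, with 3 listed at 0 throughout, and their shared low ranks can raise rho. DSS_CS library 4 had a median rho of 0.566 with the other 15 and CON_VD library 2 had 0.675, while the other libraries had medians of 0.778 to 0.840. Among the 91 pairs without these 2 libraries rho was 0.730 to 0.892. The prostate gene Pbsn stood at 128 and 1355 FPKM in DSS_CS libraries 3 and 4 and at 185 FPKM in CON_CS library 1, and under 1 FPKM in the other 13. Other genes of prostate and seminal secretions shared this pattern only in part. Svs2, Svs4 and Svs5 had 0.445, 1.79 and 2.03 FPKM in DSS_CS library 4. They had 0.303, 1.05 and 2.10 FPKM in DSS_VD library 3, where Pbsn was at 0.481 FPKM. In DSS_CS library 3 and CON_CS library 1 they had at most 0.0435 FPKM. Spink1 had at least 51.6 FPKM in every library. It averaged 115 FPKM in DSS_CS, 249 in DSS_VD, 254 in CON_CS and 310 in CON_VD.

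Kappa variable RNA was higher under DSS after either mode of birth, and on water it was lowest after cesarean section. The summed level over the 130 segments was 2074, 4990, 2223 and 8657 FPKM in DSS_CS libraries 1 to 4. It was 4647, 4230, 8926 and 6092 FPKM in DSS_VD libraries, 262, 1315, 254 and 339 FPKM in CON_CS libraries, and 2122, 1465, 1793 and 1558 FPKM in CON_VD libraries. Each DSS library lay above every water library of its own birth mode, every CON_CS library lay below every CON_VD library, and the DSS_CS and DSS_VD ranges overlapped. The means were 4486 ± 3087 FPKM in DSS_CS, 5974 ± 2124 in DSS_VD, 542 ± 516 in CON_CS and 1735 ± 293 in CON_VD (SD, n = 4 each).

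The DSS_CS mean was 8.27 times the CON_CS mean, and the DSS_VD mean was 3.44 times the CON_VD mean. The DSS_CS mean was 0.751 times the DSS_VD mean, and the CON_CS mean was 0.313 times the CON_VD mean. CON_CS library 2 carried much of its group's level: without it the CON_CS mean was 285 FPKM, which is 0.164 times CON_VD, and DSS_CS stood at 15.8 times CON_CS. Without DSS_CS library 4 the DSS_CS mean was 3096 FPKM, 0.518 times DSS_VD and 5.71 times CON_CS, and without CON_VD library 2 the CON_VD mean was 1824 FPKM. These sums have no test, since the members form a chosen group, and in whole colon RNA more cells of a type and more RNA per cell cannot be told apart.

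**Figure D1:**
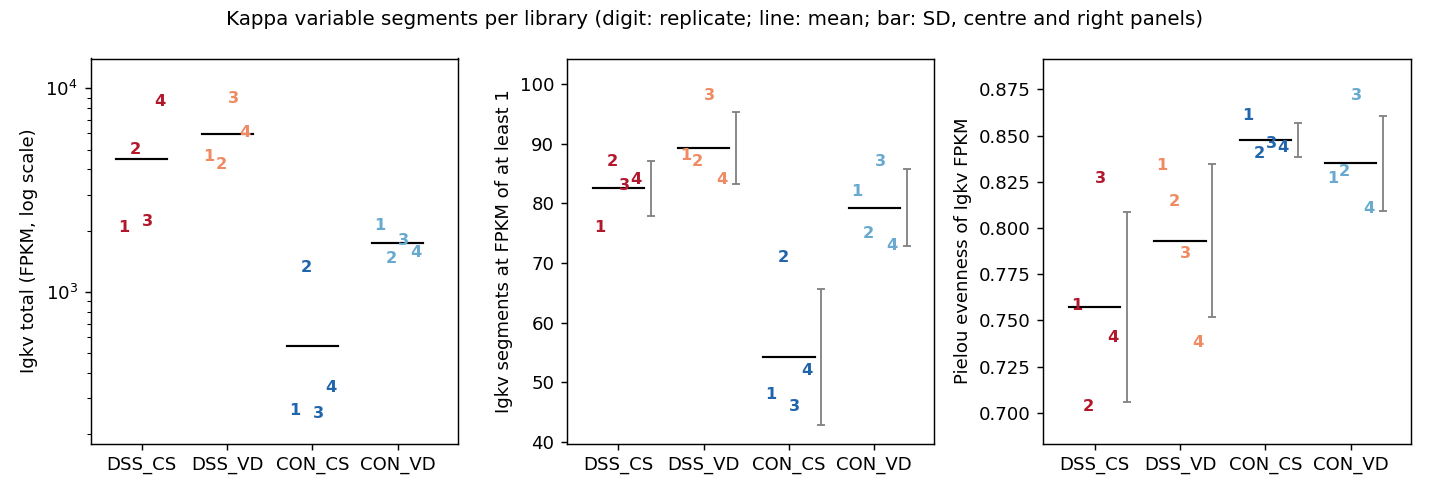
Igkv total in FPKM on a log scale (left), segments at FPKM of at least 1 (centre) and Pielou evenness (right) for each of the 16 libraries. Digits are replicate numbers, lines group means, and bars in the centre and right panels SD. CON_CS library 2, at 1315 FPKM and 71 segments, sits above the other CON_CS libraries.

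Group means of detected segments followed the order of the group mean totals, and single libraries did not always. A segment counts as detected at FPKM of at least 1. DSS_CS libraries had 76, 87, 83 and 84 detected segments, DSS_VD libraries 88, 87, 98 and 84, CON_CS libraries 48, 71, 46 and 52, and CON_VD libraries 82, 75, 87 and 73. CON_CS stood below all other groups without overlap, while DSS_VD and CON_VD overlapped. When a segment instead had to reach 1% of its library's own Igkv total, the means were 24.8 ± 4.8 in DSS_CS, 25.8 ± 4.3 in DSS_VD, 29.5 ± 2.1 in CON_CS and 29.3 ± 3.0 in CON_VD (SD, n = 4 each), so CON_CS was then not the lowest group.

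Over the 16 libraries 109 segments were detected at least once, 22 in every library and 87 in some. Among the 21 never detected, 19 are pseudogenes and 3 were listed at 0 throughout. Segments detected in all 4 libraries of a group numbered 57 in DSS_CS, 77 in DSS_VD, 30 in CON_CS and 58 in CON_VD. At least 1 DSS library and no water library detected 16 segments, 9 genes and 7 pseudogenes, and none showed the reverse. Of these 16, 8 were seen in a single library. Igkv7-33 reached 812 FPKM and the next of them 27.1 FPKM. A fixed FPKM limit can find more segments where the total is higher, as it was under DSS. The share of all genes detected only under DSS is not given. Pseudogenes together held 0 to 1.44% of the total in any library.

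Evenness describes how equally the total is spread. Pielou evenness is 1 when all segments above 0 have the same level. It was 0.758, 0.703, 0.827 and 0.741 in DSS_CS libraries, 0.834, 0.815, 0.786 and 0.738 in DSS_VD libraries, 0.861, 0.840, 0.846 and 0.843 in CON_CS libraries, and 0.827, 0.830, 0.872 and 0.811 in CON_VD libraries. Every DSS_CS and every DSS_VD library was less even than every CON_CS library, and the other pairs of groups overlapped. The effective number of segments, the number of equally used segments that would give the same diversity, averaged 33.4 ± 9.4 in DSS_CS, 40.5 ± 7.2 in DSS_VD, 40.4 ± 2.2 in CON_CS and 45.2 ± 7.0 in CON_VD (SD, n = 4 each). Its ranges were 25.5 to 46.9 in DSS_CS, 31.0 to 48.0 in DSS_VD and 38.6 to 43.4 in CON_CS, so both DSS groups overlapped CON_CS and the separation in evenness did not hold for this measure.

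A single segment, Igkv1-117, led 3 of the 4 DSS_CS libraries. It held 20.4%, 23.8% and 20.8% of the total in DSS_CS libraries 1, 2 and 4, while the leader of library 3, Igkv10-96, held 8.17%. In DSS_VD libraries 1 to 4 the leaders were Igkv1-110 at 8.08%, Igkv1-117 at 8.66%, Igkv7-33 at 9.10% and Igkv19-93 at 17.4%. Leaders on water held 7.63% to 12.9% in CON_CS and 6.76% to 12.3% in CON_VD. No segment led every library of a group.

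The 10 highest segments of a library together held 47.1% to 67.5% of the total in DSS_CS, 46.3% to 61.9% in DSS_VD, 48.0% to 52.6% in CON_CS and 39.5% to 52.4% in CON_VD. To reach 50% of the total took 5 to 11 segments in DSS_CS, 6 to 12 in DSS_VD, 10 or 11 in CON_CS and 10 to 15 in CON_VD.

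**Figure D2:**
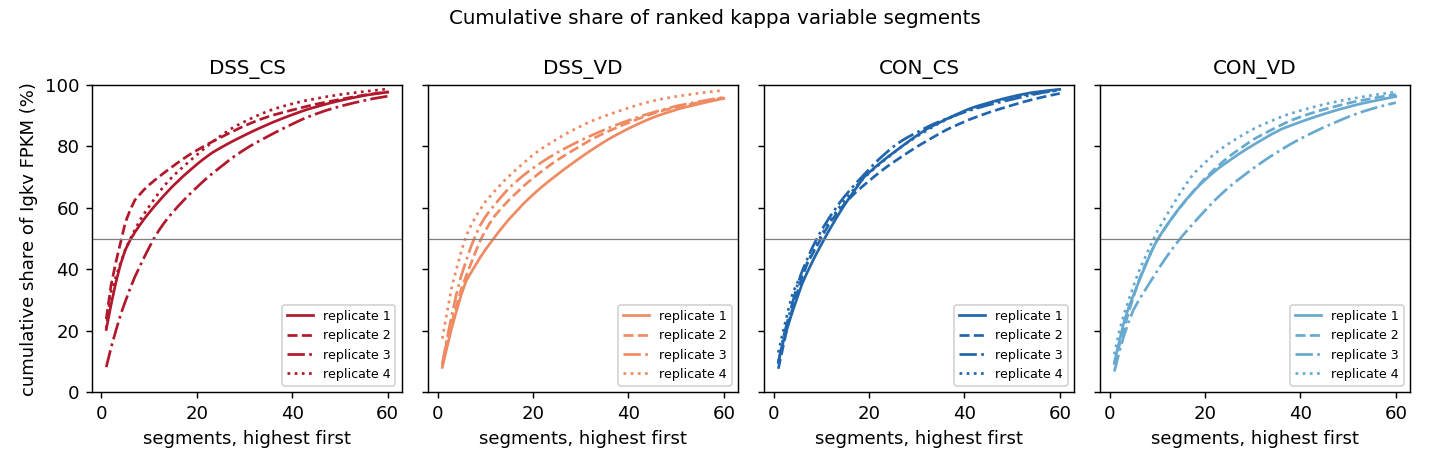
Cumulative share of the Igkv FPKM (vertical axis, %) against the number of segments counted from the highest (horizontal axis), a panel per group and a line per library. The grey line marks 50%, which DSS_CS library 2 crosses at 5 segments and CON_VD library 3 at 15.

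The variable segments followed the constant segment. Igkc had 2180, 5223, 1619 and 8689 FPKM in DSS_CS libraries, 3811, 3687, 7575 and 4022 FPKM in DSS_VD libraries, 239, 1007, 218 and 310 FPKM in CON_CS libraries, and 2521, 1610, 1905 and 1732 FPKM in CON_VD libraries. Igkc rose in DSS_CS against CON_CS (log2 fold change 3.31 ± 0.64 SE on log2(FPKM + 1), limma adjusted p = 0.00181 over all genes tested) and in DSS_VD against CON_VD (1.25 ± 0.28, adjusted p = 0.00691). Its difference between DSS_CS and DSS_VD was −0.35 ± 0.54 (adjusted p = 0.697), and between CON_CS and CON_VD −2.42 ± 0.44 (adjusted p = 0.0640). Without CON_CS library 2 the adjusted p of that comparison on water was 0.000959. The DSS_VD against CON_VD call was lost in 2 of 17 alternatives, the fit on all 4 groups and the one with no filter on low values, with adjusted p from 0.00292 to 0.163 over the 17.

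The ratio of the Igkv total to Igkc was 0.951, 0.955, 1.37 and 0.996 in DSS_CS libraries, 1.22, 1.15, 1.18 and 1.51 in DSS_VD libraries, 1.10, 1.31, 1.17 and 1.09 in CON_CS libraries, and 0.842, 0.910, 0.941 and 0.900 in CON_VD libraries. All ratios of the other 3 groups were above all CON_VD ratios. Igkc and the Igkv total had a Spearman rho of 0.965 over the 16 libraries. Ranked within each set, rho was 0.929 in the 8 DSS libraries and 1 in the 8 water libraries.

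**Figure D3:**
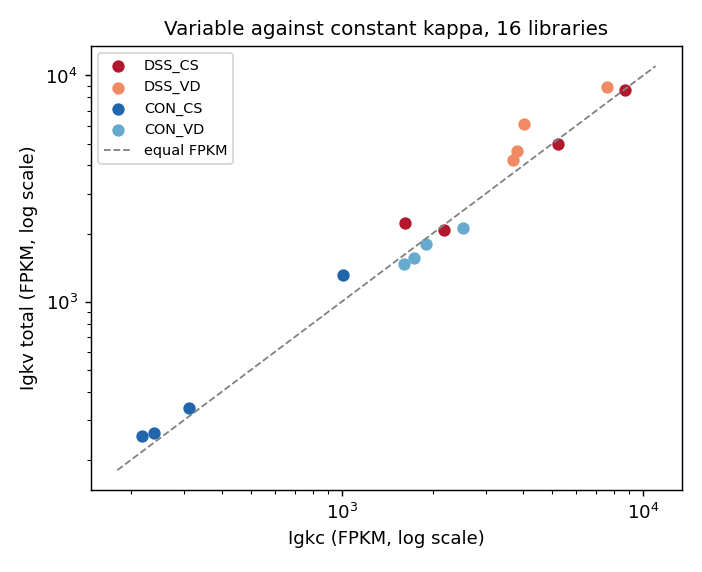
Igkv total against Igkc, both in FPKM on log scales, a point per library coloured by group, with a dashed line at equal values. Points run from CON_CS libraries near 218 FPKM of Igkc to DSS_CS library 4 at 8689 FPKM.

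Outside the immunoglobulin loci, 12416 genes with a mean FPKM of at least 1 were ranked by how closely their levels over the 16 libraries followed the Igkv total. The closest were Mzb1, a plasma cell chaperone, Lax1, an adaptor of lymphocyte receptors, Alg1, an enzyme of N-glycan assembly, and Irf4 and Xbp1, transcription factors of plasma cells. Their Spearman rho over all libraries was 0.944 to 0.962, which includes the gap between DSS and water. Within the 8 DSS libraries rho was 0.667 to 0.833, and within the 8 water libraries 0.833 to 0.952.

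The cells around the kappa transcripts also differed between groups. The B cell list (20 genes) summed to 241 to 497 FPKM in DSS_CS, 253 to 607 in DSS_VD, 9.81 to 12.6 in CON_CS and 8.29 to 75.9 in CON_VD, where library 1 alone exceeded 15.3 FPKM. All 18 tested members of that list rose in DSS_CS against CON_CS, where 34.4% of all genes rose, and all 17 tested rose in DSS_VD against CON_VD, where 24% of all genes did. Of the 20 plasma cell genes, 12 of 17 tested rose and 1 fell in DSS_CS, and 9 of 19 rose in DSS_VD, against their water groups and beside the same shares of all genes.

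Pan-epithelial markers (10 genes) summed to 776 to 2338 FPKM in DSS_CS, 2193 to 4681 in DSS_VD, 4972 to 5240 in CON_CS and 4327 to 5123 in CON_VD. Erythrocyte markers reached 903 to 9731 FPKM in DSS_CS, against 241 to 975 in DSS_VD, 28.4 to 47.7 in CON_CS and 53.6 to 332 in CON_VD. The part of these shifts in tissue content in the kappa levels was not tested.

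The heavy chain classes expressed beside the kappa chain also differed. IgG constant genes made up 33.3 ± 19.2% of the heavy constant FPKM in DSS_CS, 37.3 ± 4.8% in DSS_VD, 2.92 ± 0.85% in CON_CS and 1.58 ± 1.53% in CON_VD (SD, n = 4 each). IgA made up 48.4 ± 24.8% in DSS_CS, 41.6 ± 9.9% in DSS_VD, 91.8 ± 2.9% in CON_CS and 95.9 ± 3.9% in CON_VD. DSS_CS library 4, with the second highest kappa total, had 60.4% IgG. Lambda constant genes, the other light chain class, made up 7.11 ± 5.21% of light constant FPKM in DSS_CS, 3.56 ± 0.85% in DSS_VD, 3.69 ± 0.83% in CON_CS and 1.95 ± 0.45% in CON_VD.

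After cesarean birth many segments rose under DSS, in a comparison where much of the transcriptome changed. Of 73 segments tested in DSS_CS against CON_CS, 43 rose and none fell, against 60.3% of all genes tested that passed in either direction (34.4% higher and 25.9% lower). The median log2 fold change was 2.39 over the tested segments and 0.06 over all genes. The filter left 57 segments untested, and 3 of those tested had passed it through DSS_CS libraries alone, so the count does not speak for the whole locus. Over all 130 segments the mean was higher in DSS_CS for 111, lower for 5 and equal for 14. Without DSS_CS libraries 3 and 4, where Pbsn was high, 25 of 61 tested segments rose, and the share of all genes that rose in that fit is not given.

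Igkv1-117 had 424, 1188, 84.7 and 1802 FPKM in DSS_CS libraries, against 12.9, 73.2, 21.3 and 11.7 FPKM in CON_CS libraries. The groups did not overlap, yet DSS_CS library 3 exceeded CON_CS library 2 by little (log2 fold change 4.51 ± 0.95, adjusted p = 0.00300). Igkv1-110 had 125, 549, 139 and 1024 FPKM against 26.3, 93.2, 14.7 and 43.7 (3.10 ± 0.77, adjusted p = 0.00721). Both segments are from the family with the largest share of DSS_CS kappa RNA.

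Igkv9-124 had 44.9, 163, 27.5 and 93.9 FPKM in DSS_CS libraries, against 0, 3.52, 2.01 and 1.51 FPKM in CON_CS libraries. That gap, 4.80 ± 0.60 on the log2 scale (adjusted p = 0.000142), was the largest of the 43. Igkv16-104 had the smallest p, with 65.4, 44.7, 117 and 91.5 FPKM in DSS_CS libraries and 3.06, 11.7, 7.19 and 4.30 in CON_CS libraries (3.47 ± 0.39, adjusted p = 7.59e-05). Neither segment overlapped between groups.

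Igkv14-100 had 12.7, 39.1, 72.4 and 120 FPKM in DSS_CS libraries and 0.311, 5.68, 0.30 and 2.39 in CON_CS libraries (4.24 ± 0.74, adjusted p = 0.00101). Igkv1-135 had 24.2, 26.6, 25.2 and 59.4 FPKM in DSS_CS libraries and 3.05, 5.89, 0.758 and 3.02 in CON_CS libraries (3.11 ± 0.43, adjusted p = 0.000231). Igkv1-99 had 2.84, 6.47, 2.41 and 14.2 FPKM in DSS_CS libraries and was listed at 0 in every CON_CS library, so no fold is given for it.

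Other segments of the 10 highest rose as well. Igkv10-96 averaged 267 ± 112 FPKM in DSS_CS and 34 ± 44.6 in CON_CS (log2 fold change 3.65 ± 0.75, adjusted p = 0.00257), and Igkv19-93 averaged 111 ± 102 and 6.79 ± 7.47 (3.89 ± 0.71, adjusted p = 0.00129; SD, n = 4 each). Igkv6-15 (adjusted p = 0.00337) and Igkv5-43 (0.00179) also rose. Igkv8-24 (0.0267), Igkv12-44 (0.0360) and Igkv8-30 (0.0468) passed with every library, but each lost its call in 7 or 8 of 18 alternatives, among them without CON_CS library 1, 3 or 4 and without each of 2 or 3 DSS_CS libraries. Igkv7-33 was not tested here, having reached FPKM 1 in too few of the 8 libraries.

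After vaginal birth fewer segments passed. Of 89 segments tested in DSS_VD against CON_VD, 29 rose and none fell, which is 32.6% of those tested, against 40.9% of all genes (24% higher and 17% lower). The median log2 fold change was 1.41 over the tested segments and 0.06 over all genes. Over all 130 segments the mean was higher in DSS_VD for 109, lower for 14 and equal for 7. With the replicate number as a block 41 rose and 1 fell, and with no filter on low values 17 rose. Shares of all genes in those fits are not given. One of the 29, Igkv7-33, passed the filter through DSS_VD libraries alone and so had to differ. Among the 73 segments tested in both DSS contrasts, 25 rose after vaginal birth and 43 after cesarean birth, and 13 rose in both, which is 52% of the 25 and 30.2% of the 43. Over all genes tested in both contrasts, 2736 rose in both, which is 84.2% of those that rose after vaginal birth and 61.2% of those that rose after cesarean birth.

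Igkv1-117 had 308, 366, 671 and 524 FPKM in DSS_VD libraries, against 76.8, 43.1, 98.8 and 87.8 FPKM in CON_VD libraries. All DSS_VD libraries were above all CON_VD libraries, and the log2 fold change was 2.59 ± 0.31 (adjusted p = 0.000256). Igkv8-30 had 203, 239, 756 and 505 FPKM in DSS_VD libraries and 49.8, 18.5, 30.7 and 41.3 in CON_VD libraries (3.45 ± 0.45, adjusted p = 0.000369). Its groups did not overlap either.

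Igkv10-96 had 243, 236, 335 and 361 FPKM in DSS_VD libraries and 103, 129, 110 and 54.7 in CON_VD libraries (1.60 ± 0.27, adjusted p = 0.00147). Its groups did not overlap. Igkv1-135 averaged 76.7 ± 24.6 FPKM in DSS_VD and 12.1 ± 5.2 in CON_VD (2.60 ± 0.32, adjusted p = 0.000291). Igkv2-109 averaged 64.7 ± 30.6 FPKM in DSS_VD and 10.3 ± 5.3 in CON_VD (2.51 ± 0.43, adjusted p = 0.00155; SD, n = 4 each). Igkv1-117, Igkv8-30, Igkv10-96, Igkv1-135, Igkv2-109 and Igkv1-110 kept their calls in all 17 alternatives.

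**Figure D4:**
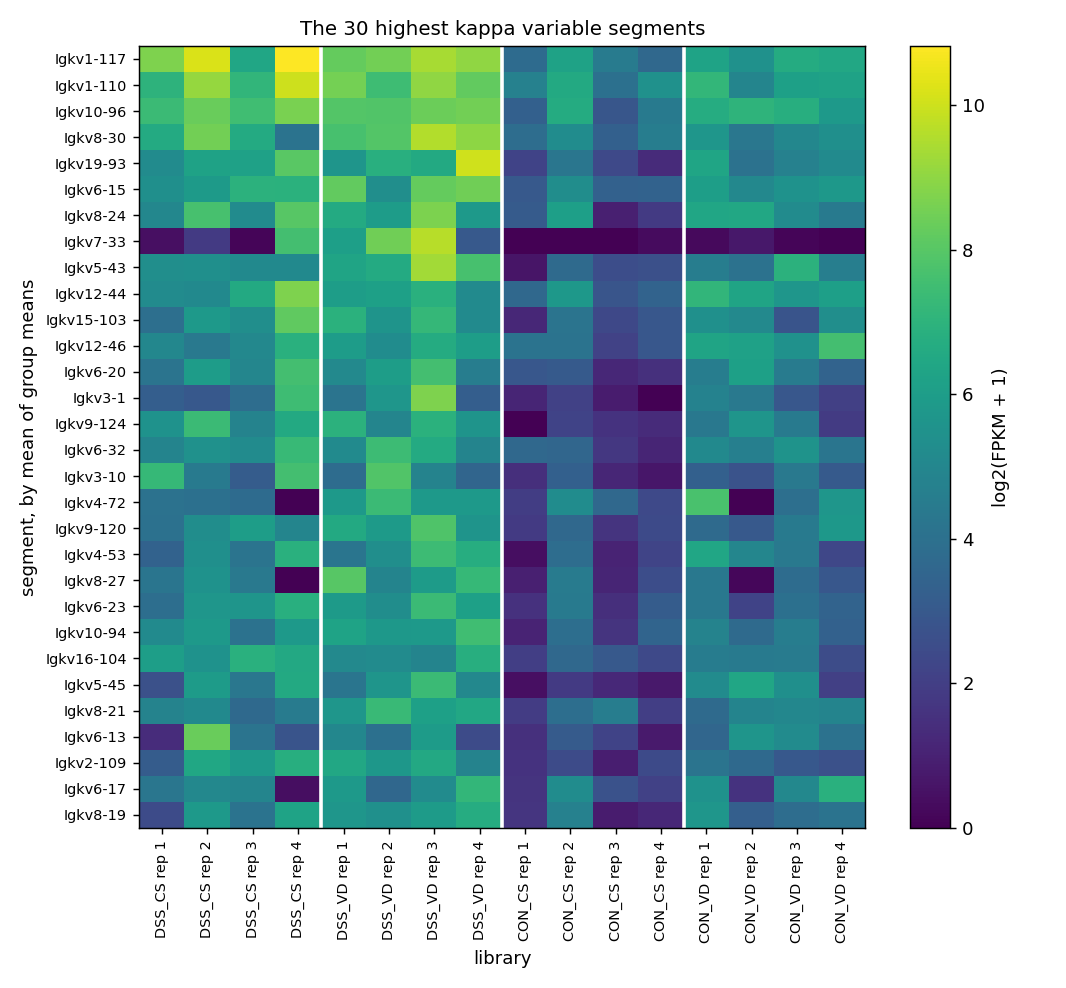
log2(FPKM + 1) of the 30 segments with the highest mean of group means (rows) in each of the 16 libraries (columns, groups parted by white lines). Igkv7-33 is near 0 in all water libraries, and Igkv4-72 and Igkv8-27 are at or near 0 in DSS_CS library 4 and CON_VD library 2.

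Igkv7-33 (ENSMUSG00000076575, chr6:70058632-70059199, − strand) was almost restricted to DSS libraries. It had 0.345, 2.60, 0.110 and 192 FPKM in DSS_CS libraries, 67.2, 353, 812 and 7.23 FPKM in DSS_VD libraries, 0, 0, 0 and 0.262 FPKM in CON_CS libraries, and 0.218, 0.643, 0.123 and 0 FPKM in CON_VD libraries. No water library reached FPKM 1, all DSS_VD libraries did, and in DSS_CS library 4 stood far above the others. Since it entered the DSS_VD against CON_VD test through DSS_VD libraries alone, its difference of 6.52 on the log2(FPKM + 1) scale is given as a description, and its size depends on the pseudocount (6.43 to 8.66 over 13 alternatives that gave a value).

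Igkv19-93 (ENSMUSG00000098814) was the leader of a single library. It had 36.6, 73.7, 72.7 and 263 FPKM in DSS_CS libraries, 49.5, 111, 93.3 and 1062 FPKM in DSS_VD libraries, 3.53, 17.9, 4.29 and 1.5 FPKM in CON_CS libraries, and 80.9, 15.9, 25.9 and 35.2 FPKM in CON_VD libraries. DSS_VD library 4 stood far above the next DSS_VD library, at 111 FPKM, and the DSS_VD and CON_VD ranges overlapped.

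Between the DSS groups 7 segments were lower after cesarean birth and none higher. Of 91 segments tested in DSS_CS against DSS_VD, these are 7.69%, against 13.4% of all genes in either direction (7.89% higher and 5.54% lower). The median log2 fold change was −0.80 over the tested segments and 0.06 over all genes, and 71 of the 91 were negative. Over all 130 segments the mean was higher in DSS_CS for 41, lower for 85 and equal for 4. The count changed with the libraries fitted. None passed without DSS_CS library 2 or 3 or without DSS_VD library 1 or 2, and 1 passed without DSS_VD library 4. None passed without DSS_CS libraries 3 and 4 together, while the fit on all 4 groups called more than 7. Leaving out libraries means fewer samples, and shares of all genes in those fits are not given, so these counts cannot be read against them.

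Igkv14-111 (ENSMUSG00000095771) had the smallest p of the 7. It had 11.7, 10.3, 17.6 and 10.5 FPKM in DSS_CS libraries, against 28.3, 41.1, 47.9 and 62.8 FPKM in DSS_VD libraries. No values overlapped, and the log2 fold change was −1.74 ± 0.25 (adjusted p = 0.0299, against 0.0152 to 0.168 over 18 alternatives, of which 8 lost the call).

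Igkv5-43 (ENSMUSG00000094433) had 39.3, 41.1, 33.9 and 34.2 FPKM in DSS_CS libraries, against 77.6, 96.3, 639 and 203 FPKM in DSS_VD libraries (−2.23 ± 0.58, adjusted p = 0.0421). The DSS_CS values lay close together, and the DSS_VD values differed widely. Igkv8-21 had 27.6, 34.3, 12.1 and 21.8 FPKM in DSS_CS libraries, against 50.7, 158, 69.7 and 87.4 FPKM in DSS_VD libraries (−1.85 ± 0.39, adjusted p = 0.0327). Igkv4-61 had 7.97, 14.9, 1.63 and 5.07 FPKM against 43.8, 29.3, 23.9 and 93.0 FPKM (−2.61 ± 0.58, adjusted p = 0.0339). These segments did not overlap between groups.

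Igkv12-89 averaged 0.885 ± 1.14 FPKM in DSS_CS and 7.56 ± 5.30 in DSS_VD (−2.18 ± 0.45, adjusted p = 0.0319), and Igkv1-135 averaged 33.9 ± 17.1 and 76.7 ± 24.6 (−1.21 ± 0.33, adjusted p = 0.0460; SD, n = 4 each). For Igkv12-89, DSS_CS library 1 had 2.58 FPKM and the other DSS_CS libraries 0.132 to 0.493. The DSS_VD libraries were enough for Igkv12-89 to pass the filter, although DSS_CS library 1 also reached FPKM 1. Its difference is given as a description, and its size depends on the pseudocount. Igkv4-72, the seventh, was listed at 0 in DSS_CS library 4 (−3.26 ± 0.89, adjusted p = 0.0473). Each of the 7 lost its call in 8 to 12 of 18 alternatives.

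**Figure D5:**
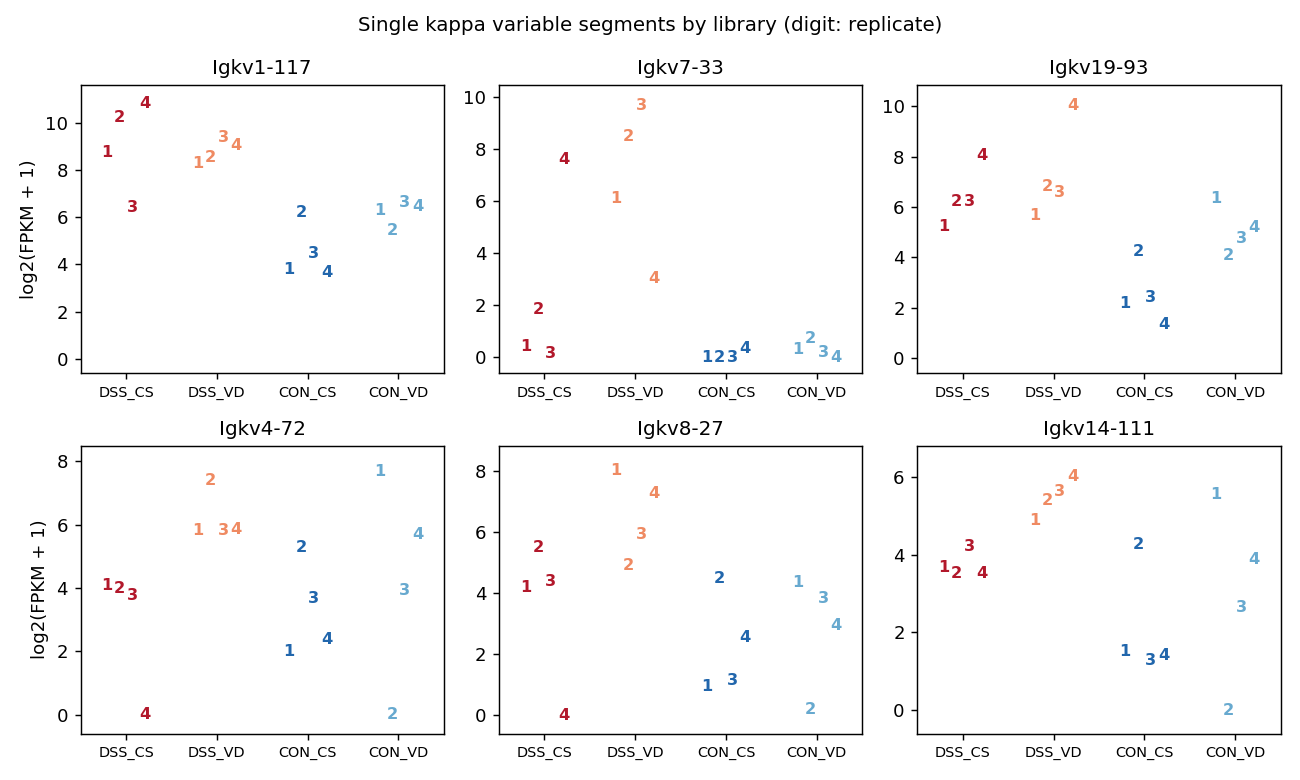
log2(FPKM + 1) of 6 segments in each library, with digits for replicate numbers and groups along the horizontal axis. Igkv14-111 is lower in all DSS_CS than in all DSS_VD libraries, and Igkv4-72 and Igkv8-27 drop to or near 0 in DSS_CS library 4 and CON_VD library 2.

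On water no segment passed the threshold between birth modes. None of 74 segments tested in CON_CS against CON_VD was called by limma, against 0.407% of all genes (0.181% higher and 0.226% lower), and 43 of the 74 had an unadjusted p under 0.05 (58.1%), against 19.6% of all genes. The lowest adjusted p was 0.0580, for Igkv12-46. The median log2 fold change was −1.58 over the tested segments and 0.03 over all genes, and 71 of the 74 were negative. Of the 74, 3 had passed the filter through CON_VD libraries alone. These 3 had to be lower in CON_CS, and they are part of the 71 and of the median. Over all 130 segments the mean was higher in CON_CS for 12, lower for 101 and equal for 17. Without CON_CS library 2, 8 segments were lower in CON_CS, without CON_VD library 4, 6, and without CON_VD library 2, 1. Shares of all genes in those fits are not given. Igkv12-46 itself had 16.2, 16.3, 3.33 and 6.56 FPKM in CON_CS libraries, against 77.7, 72.7, 43.3 and 192 FPKM in CON_VD libraries. Those values did not overlap.

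Of the lists around the kappa chain, Mzb1 was the single plasma cell gene of 16 tested that fell in CON_CS against CON_VD, with 1.96, 6.0, 2.65 and 2.75 FPKM in CON_CS libraries, against 18.3, 12.8, 13.9 and 8.52 FPKM in CON_VD libraries (−1.76 ± 0.29, adjusted p = 0.0457, lost in 10 of 17 alternatives, with adjusted p from 0.0122 to 0.148). Mzb1 did not overlap between the groups. Jchain, which links IgA into dimers, had −2.38 ± 0.46 (adjusted p = 0.0707), and Igha, the IgA constant gene, −2.31 ± 0.47 (adjusted p = 0.0766). None of the 5 B cell genes or 10 pan-epithelial markers tested passed.

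The response to DSS differed between birth modes for 2 of 92 segments tested, against 13.2% of all genes (6.68% higher and 6.55% lower). Igkv1-99 had an interaction of 2.73 ± 0.73 on the log2(FPKM + 1) scale (adjusted p = 0.0274). It stood at 2.84, 6.47, 2.41 and 14.2 FPKM in DSS_CS libraries, 1.88, 1.15, 3.83 and 2.0 in DSS_VD libraries, 0 in all CON_CS libraries, and 5.15, 2.89, 0 and 3.82 FPKM in CON_VD libraries. Its level was higher under DSS after cesarean birth, and the vaginal-birth groups overlapped. Its call was lost in 5 of 25 alternatives: with no filter on low values, without DSS_CS library 2, without DSS_VD library 2, without CON_VD library 1, and without DSS_CS library 4 and CON_VD library 2 together. The adjusted p ranged from 0.0146 to 0.0689 over those alternatives.

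Igkv1-88 had an interaction of 3.46 ± 1.09 (adjusted p = 0.0491), which was lost in 17 of 25 alternatives. It had 11.2, 64.6, 5.32 and 109 FPKM in DSS_CS libraries, 22.7, 22.2, 25.7 and 10.3 in DSS_VD libraries, 2.02, 0.330, 0.185 and 0.344 in CON_CS libraries, and 6.83, 5.88, 11.9 and 39.5 FPKM in CON_VD libraries. For Igkc the same term was 2.06 ± 0.74 (adjusted p = 0.0760, and 0.0313 without CON_CS library 2). Both segments were low or listed at 0 in most CON_CS libraries.

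Families differed in their shares of kappa RNA. The 12 segments of Igkv1 held 30.3 ± 12% of the total in DSS_CS, 16.4 ± 1.2% in DSS_VD, 16.3 ± 2.7% in CON_CS and 11.8 ± 2.6% in CON_VD (SD, n = 4 each). DSS_CS library 3, at 14.1%, was within the ranges of both water groups and below that of DSS_VD (15.2% to 17.9%). The 32 segments of Igkv4, the most numerous family, held 8.13 ± 3.72% in DSS_CS, 11.5 ± 2.3% in DSS_VD, 21.9 ± 5.4% in CON_CS and 15.1 ± 5.6% in CON_VD. The DSS_CS and CON_CS ranges of Igkv4 did not overlap (4.71% to 12% and 14.6% to 27.4%). Igkv12, with 9 segments, held 4.71 ± 2.58% in DSS_CS and 8.12 ± 2.79% in CON_CS, and 3.51 ± 0.66% in DSS_VD and 13.4 ± 4.2% in CON_VD, where the last pair did not overlap.

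Shares were also set beside the orientation and position of the segments. Segments on the strand of Igkc, which join by deletion, held 50.4 ± 6.4% of the total in DSS_CS, 35.8 ± 4.5% in DSS_VD, 37.1 ± 3.3% in CON_CS and 30.6 ± 4.0% in CON_VD (SD, n = 4 each). Every DSS_CS library (42.4% to 58.0%) was above every DSS_VD library (30.2% to 40.6%) and every CON_CS library (34.2% to 40.5%). The 45 segments within 1000 kb of Igkj1 held 35.0 ± 3.9% in DSS_CS, 46.6 ± 8.8% in DSS_VD, 43.6 ± 5.5% in CON_CS and 51.0 ± 6.4% in CON_VD. Igkv1-117 and Igkv1-110 both lie on the strand of Igkc and beyond 1000 kb. These shares are descriptions without a test.

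DSS_CS library 4 and CON_VD library 2 lacked segments that were in wide use elsewhere. A segment was counted as common when it held at least 0.1% of the Igkv total in at least 12 of the other 15 libraries. Of 63 such segments, 11 were under 0.01% of the total in DSS_CS library 4 and 8 of these were listed at 0. In CON_VD library 2, 6 of 63 were under that limit and 4 were listed at 0. CON_CS library 1 had 2 such segments, CON_CS library 4 had 1, and the other 12 libraries had none. DSS_CS library 4 had the second highest Igkv total of the series, 8657 FPKM, in which 0.01% is 0.866 FPKM.

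Igkv4-72 (ENSMUSG00000076545, chr6:69226854-69227433, − strand) was missing from both. It had 16, 14.9, 12.6 and 0 FPKM in DSS_CS libraries, 55.9, 167, 54.9 and 56.9 FPKM in DSS_VD libraries, 2.95, 37.5, 11.6 and 4.23 FPKM in CON_CS libraries, and 206, 0, 14.3 and 50.1 FPKM in CON_VD libraries. It was thus the leading segment of CON_VD library 1 and listed at 0 in CON_VD library 2. Igkv4-68, Igkv5-48 and Igkv8-27 were under the limit in the same 2 libraries, and were named after their values were seen.

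Igkv8-27 had 0 FPKM in DSS_CS library 4 and 0.141 FPKM in CON_VD library 2, against 0.939 to 258 FPKM in the other 14. Igkv4-59 was listed at 0 in DSS_CS library 4 and had 4.44 to 86.8 FPKM in the others. Igkv14-111 was listed at 0 in CON_VD library 2 and had 1.43 to 62.8 FPKM in the others. The germline kappa locus of these outbred mice was not analysed here. Without the 2 libraries together 1 segment passed the test of the interaction, in the direction opposite to the 2 named above.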

How the data were processed

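The values are FPKM (fragments scaled by gene length and library depth), deposited by the authors as a single table of 39328 genes by 16 libraries. Per the submitters' processing notes, cutadapt, FastQC and GRCm38 were used, without versions. The aligner, quantifier and annotation, and whether strand was kept, are not given in the sources. If it was not, reads of antisense neighbours cannot be separated. Depth is unknown: whole-read steps were not found among low values (at most 0.978% of log2 ratios on a single value). FPKM sums ranged from 280135 to 343423 per library.

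Symbols came from a table of gene names and biotypes, positions and sequences from GENCODE M21. Of all identifiers, 39181 had a symbol, and all 130 Igkv identifiers were in the annotation. Reads spanning a joint, and alleles of outbred mice that differ from the reference, may be assigned incompletely, and a value of 0 may be an estimate that failed.

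The test was limma (3.58.1, under R 4.3.3) with log2(FPKM + 1) as the value, which understates changes of low genes, with an intensity trend. A gene was tested when at least 4 fitted libraries reached FPKM 1. Two-sided p-values were corrected by Benjamini-Hochberg over all genes tested, with a threshold of 0.05. Each comparison was fitted on its 8 libraries and the interaction, (DSS_CS minus CON_CS) minus (DSS_VD minus CON_VD), on 16. On simulated data with 200 changed genes, 67% to 88% of log2 changes of 1 were recovered and 93% to 97% of changes of 2, depending on the comparison. The changed genes were drawn from better expressed genes of the whole table, with normal noise. The rates were not computed for Igkv segments and do not apply to them. None of the 74 segments tested in CON_CS against CON_VD passed, at a median log2 fold change of −1.58. Totals, detection, evenness (Shannon entropy over the natural log of the number of segments above 0), shares and rank correlations have no test. Named segments are the 10 highest by mean of group means, each library's leader, and up to 5 called segments of smallest p per comparison and direction. Members, lists and tests were chosen with earlier results of these data known. The rule for common segments and its libraries' removal, and the removal of DSS_CS libraries 3 and 4, were chosen after seeing the data. No 2 libraries were identical. Same-numbered libraries did not deviate together, so the numbers were not used as pairs.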

Additional observations from a re-analysis of the deposited data

Results flagged for a closer look

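In groups of 4 libraries, a library was listed when its gap to the nearest other library exceeded Dixon's 95% critical value for the share of the group's range. Of 108 group values examined, 25 met this. The chance rate of about 1 in 20 holds for normal values, whereas these were mostly untransformed FPKM of segments named from the same data. The segments of a library are also not independent of each other, so the 25 cannot be compared with that rate.

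CON_CS library 2 accounted for several of them. Its Igkv total was 1315 FPKM, against 254 to 339 in the other CON_CS libraries. It also had the highest Igkv1-117 (73.2 FPKM), Igkv10-96 (100.3), Igkv19-93 (17.9), Igkv6-15 (38.2), Igkv8-24 (68.2), Igkv12-44 (54.2) and Igkv14-111 (18.1) of that group, so the segments of this library were raised together. Igkv1-88 was highest in CON_CS library 1 at 2.02 FPKM and Igkv7-33 in CON_CS library 4 at 0.262 FPKM.

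DSS_CS library 4 was far above its group for Igkv7-33 (192 FPKM), Igkv19-93 (263), Igkv12-44 (422), Igkv12-46 (114) and Igkv1-135 (59.4). DSS_CS library 1 was so for Igkv12-89 (2.58 FPKM), and DSS_CS library 3 for the ratio of Igkv total to Igkc (1.37).

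In DSS_VD, library 4 stood out for Igkv19-93 (1062 FPKM) and Igkv16-104 (109), library 3 for Igkv8-24 (414), library 2 for Igkv4-72 (167) and library 1 for Igkv12-89 (15.5). In CON_VD, library 3 was high for Igkv5-43 (121 FPKM), library 1 was low for Igkv8-21 (12.2) and library 4 was low for Igkv16-104 (4.68).

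The response to DSS differed between birth modes, by the interaction in limma, for Igkv1-99 (2.73 on the log2(FPKM + 1) scale, adjusted p = 0.0274) and Igkv1-88 (3.46, adjusted p = 0.0491). Igkv1-99 was listed at 0 in all CON_CS libraries, and its interaction ranged from 2.21 to 5.25 over 25 alternatives.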

How the results depend on the processing

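Igkv segments called in DSS_CS against DSS_VD numbered 7, but 0 with no filter on low values, 15 in 1 fit on all 4 groups, 0 without DSS_CS libraries 3 and 4, and 0 to 8 when each library was left out in turn. In CON_CS against CON_VD 0 were called, but 1 with a pseudocount of 0.1, 1 with median-of-ratios scaling, 2 in 1 fit on all 4 groups, and 0 to 8 with a library left out. In DSS_VD against CON_VD 29 were called, but 17 with no filter, and 20 to 33 with a library left out. In DSS_CS against CON_CS 43 were called, 31 to 47 with a library left out, and 25 without DSS_CS libraries 3 and 4. The interaction gave 2, but 0 with no filter, 1 with FPKM rescaled to the sum over non-immunoglobulin genes, 1 without DSS_CS library 4 and CON_VD library 2, and 0 to 5 with a library left out. No filter means that more genes were tested, and leaving out libraries means fewer samples. The causes of the other changes were not tested. The share of all genes called is not given for any alternative fit, so these counts cannot be read against it.

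Same-numbered libraries had correlations of −0.278 to 0.128, and 1 of 16 libraries correlated best with its own number. With the replicate number as a block 1 segment was called in DSS_CS against DSS_VD, 2 in CON_CS against CON_VD, 42 in DSS_VD against CON_VD, 41 in DSS_CS against CON_CS and 1 in the interaction.

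Mean detected segments in DSS_CS were 82.5, but 88.2 at FPKM of at least 0.5 and 76.0 at FPKM of at least 2. At 1% of the total they were 24.75 in DSS_CS, 25.75 in DSS_VD, 29.5 in CON_CS and 29.25 in CON_VD. Mean evenness over segments at FPKM of at least 1 was 0.896 in CON_CS and 0.865 in CON_VD. Divided by the log of the number above 0 in any library it was 0.763 in CON_CS and 0.785 in CON_VD, against 0.718 in DSS_CS and 0.762 in DSS_VD. The Igkc difference between DSS_CS and DSS_VD was −0.35 on the log2 scale, and ranged from −0.784 to 0.0241 with a library left out, with the sign turned without DSS_CS library 3. Low segments are limited by the unknown depth.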
